A study of Mus musculus with 49 samples.

Results

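The Rab GTPase genes were examined in single cortical neurons of the mouse. They were taken as every row of the expression table whose symbol is Rab followed by a number and at most a letter and a further digit, which gave 36 of the 9020 genes listed. All cells came from wild-type (WT) CD1 mice, were labelled with FlashTag at E13.5 and were collected at P7 from the somatosensory cortex. FlashTag is a dye injected into the embryonic ventricle that marks cells dividing at the ventricular surface, and brightly labelled neurons were aspirated through a patch pipette (Patch-seq). There were 49 cells in 5 library pools, all of 1 condition, with no control group. The labels do not say which animal or which day a cell came from, so the 49 cells were treated as 1 sample, no test between cells was made, and every interval given is at 95% and covers counting over cells only.

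Rab proteins are small GTPases that give the membranes of a cell their identity. In the GTP-bound form, which is set by exchange factors (GEFs), they sit on a membrane and recruit effectors such as motors and tethers, and GTPase-activating proteins (GAPs) switch them back so that they can return to the cytosol. In neurons, Rab3 proteins are bound to synaptic vesicles and act in regulated release, whereas Rab4, Rab11 and Rab7 act along the endocytic route and Rab1, Rab2 and Rab6 between the endoplasmic reticulum (ER) and the Golgi. By these roles, the members comprised 5 synaptic or secretory genes, 14 endocytic genes (9 early or recycling, 5 late or lysosomal), 9 genes of the ER and Golgi, 5 of the route from the trans-Golgi to the plasma membrane and cilium, and 3 others. A further 23 Rab genes of RefSeq, the Rab5 genes among them, were not analysed here.

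The 4 Rab3 genes are close relatives that differed most in level, so the sequence around the start of each is shown. Each line holds 250 bases before and 50 after a transcript start, 5′ to 3′ on the strand of the gene, from RefSeq on GRCm38.p6. Capitals mark 4 short motifs on either strand, which are the TATA box (TATAAA), the core of the cyclic AMP response element or CRE (TGACG), the CCAAT box (CCAAT) and the GC box (GGGCGG).
Rab3a: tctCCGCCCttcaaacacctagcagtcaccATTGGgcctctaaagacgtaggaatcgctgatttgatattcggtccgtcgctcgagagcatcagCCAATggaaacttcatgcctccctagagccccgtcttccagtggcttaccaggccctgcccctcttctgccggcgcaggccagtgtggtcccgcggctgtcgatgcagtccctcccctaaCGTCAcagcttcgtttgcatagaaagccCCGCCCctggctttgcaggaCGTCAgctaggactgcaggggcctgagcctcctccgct
Rab3b: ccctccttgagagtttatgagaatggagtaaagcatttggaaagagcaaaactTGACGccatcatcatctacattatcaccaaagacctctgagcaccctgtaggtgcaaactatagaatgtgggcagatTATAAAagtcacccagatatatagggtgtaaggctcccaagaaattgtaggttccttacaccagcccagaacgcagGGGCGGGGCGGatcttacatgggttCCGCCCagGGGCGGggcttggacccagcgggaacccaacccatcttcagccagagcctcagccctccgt
Rab3c: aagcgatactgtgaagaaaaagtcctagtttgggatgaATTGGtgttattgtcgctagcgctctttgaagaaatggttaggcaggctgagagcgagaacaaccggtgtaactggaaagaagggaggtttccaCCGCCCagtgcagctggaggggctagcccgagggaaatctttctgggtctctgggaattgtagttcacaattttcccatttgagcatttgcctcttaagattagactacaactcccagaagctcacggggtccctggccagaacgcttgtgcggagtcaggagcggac
Rab3d: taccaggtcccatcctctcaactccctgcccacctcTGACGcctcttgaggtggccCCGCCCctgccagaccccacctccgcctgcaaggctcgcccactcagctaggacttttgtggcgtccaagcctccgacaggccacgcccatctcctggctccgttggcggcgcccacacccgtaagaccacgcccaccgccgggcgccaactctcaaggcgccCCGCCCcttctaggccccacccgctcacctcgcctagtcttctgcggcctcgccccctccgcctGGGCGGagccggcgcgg
These windows lie at chr8:70754453-70754752 on the plus strand, chr4:108878820-108879119 on the plus strand, chr13:110280157-110280456 on the minus strand and chr9:21918134-21918433 on the minus strand, in that order. The Rab3a window shown held 2 copies each of the CRE core, the CCAAT box and the GC box and no TATA box, and its GC content was 60.0%. A second RefSeq window of Rab3a, at chr8:70754852-70755151, had none of these motifs and 65.3% GC. The Rab3b window was the only one of the 4 with a TATA box, held 4 GC boxes, of which some overlap, and had a GC content of 51.7%. Rab3c had 50.7% GC and 1 copy each of the CCAAT box and the GC box, and Rab3d had 71.0% GC with 3 GC boxes and 1 CRE core.

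Of the 36 members, 32 had such a window. None was found for Rab2a and Rab4a, and windows on chromosome 18, where Rab27b and Rab18 lie, were not used. Over the 39 windows of these members the median GC content was 63.3% and the median number of CpG was 23. Over all 32851 windows of RefSeq outside chromosome 18 they were 52.7% and 7. The GC box was present in 71.8% of the member windows and in 35.7% of all windows. The CRE core was present in 16 of the 39 windows beside 20.8% of all, the CCAAT box in 16 beside 37.4%, the E-box CACGTG in 3 beside 7.15% and the TATA box in 3 beside 13.6%. The full CRE palindrome TGACGTCA, which contains the core on both strands, was in 0% of the member windows and in 1.79% of all. These matches are letters in a window and not sites of binding. The windows of RefSeq were not limited to the 9020 listed genes, and a gene with several windows counts more than once. Both sets thus differ in more than Rab membership, and the part of this in the contrasts was not tested.

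The depth of the cells ranged from 209850 to 35342325 reads (median 1240101), and the median per pool from 814366 in pool 5 to 9870201 in pool 1. A single read was therefore worth 4.77 RPM (reads per 1000000 reads) in the shallowest cell and 0.0283 RPM in the deepest. The 6 pan-neuronal genes Snap25, Syt1, Stmn2, Map2, Tubb3 and Rbfox3 summed to at least 1293 RPM in every cell. Markers of other cell types were also present. The excitatory list (10 genes, such as Neurod2 and Slc17a7) had a larger sum than each of the inhibitory, astrocyte, oligodendrocyte-lineage and microglia lists in 29 cells. The inhibitory list exceeded it in 11 cells, the astrocyte list in 8, the microglia list in 5 and the oligodendrocyte-lineage list in 4. In 3 cells at least 10% of the reads were from hemoglobin genes. The choroid plexus gene Ttr exceeded the excitatory list in 12 cells. Results are therefore also given for the 27 cells that remain without the 22 led by one of these 4 lists or with 10% hemoglobin, and for the 19 that remain when the cells led by Ttr are left out too. Both choices were made after the data were seen.

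Rab3a was the leading Rab gene of these neurons. It is the main Rab of synaptic vesicles and lies on chromosome 8 (70754679 to 70758677, GRCm38, GENCODE M21). The lowest cell had 14.3 RPM, the median was 890 RPM (746 to 1147) and the highest cell had 4789 RPM. Rab3a was above 0 and at 10 RPM or more in all 49 cells (100%, exact Clopper-Pearson interval 92.7% to 100%), the only member to reach 10 RPM in every cell, as did 2.2% of all genes. In 32 of 49 cells it was the highest of the 36 members. In the remaining cells the highest was Rab11a (5), Rab6a (4), Rab2a (4), Rab14 (3) or Rab3b (1). Without the 22 cells led by one of the 4 lists or high in hemoglobin, the median level of Rab3a was 1123 RPM (836 to 1393) and it was the highest member in 21 of 27. When cells led by Ttr were left out too, the median was 1176 RPM (792 to 1441) and it was the highest member in 16 of 19.

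The plot of every member in every cell shows Rab3a as an almost unbroken bright row, broken in pools 2 and 5.

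**Figure D1:**
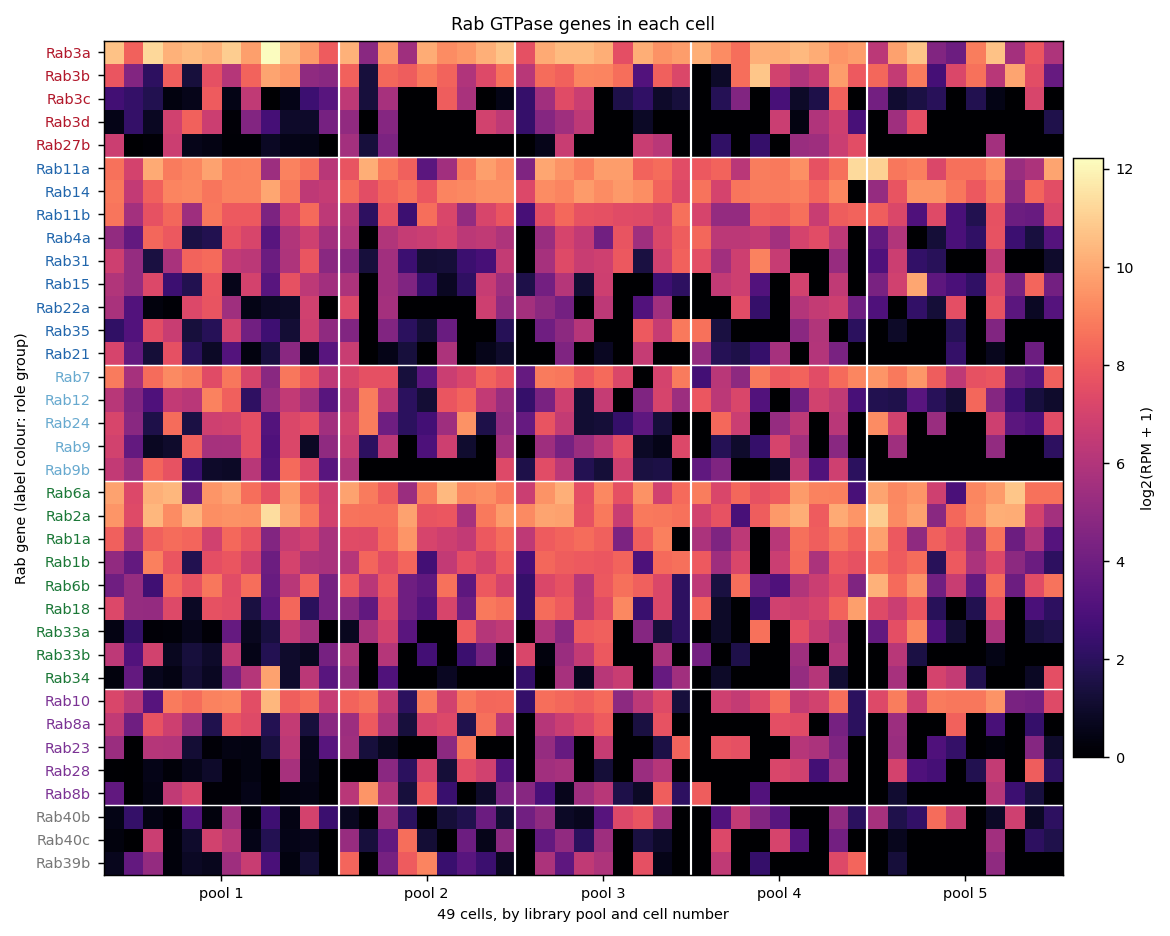
Level of the 36 Rab genes (rows, grouped by role and coloured by role on the labels) in the 49 cells (columns, by library pool), as log2(RPM + 1). Rab3a, at 14.3 to 4789 RPM, is bright in nearly every column, Rab11a, Rab14, Rab6a and Rab2a form further bright rows, and the lower rows of each role group are dark in most cells.

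Rab3b, a second Rab3 of regulated secretion (chromosome 4, 108879063 to 108943324), was next among the synaptic genes. Its level was 0 RPM in the lowest cell, 220 RPM at the median (96.7 to 298) and 1739 RPM in the highest cell, and it reached 10 RPM in 42 cells. Rab3c and Rab3d were far lower. Rab3c had a median of 2.08 RPM and a highest value of 296 RPM, with 13 cells at 10 RPM or more, and Rab3d had a median of 0.862 RPM and a highest value of 291 RPM, with 17 cells. Rab27b, which acts on secretory granules, had a median of 0 RPM, reached 10 RPM in 12 cells and was at most 185 RPM. The bulk of the synaptic Rab reads thus came from Rab3a and Rab3b in these cells.

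Among the genes of early and recycling endosomes, Rab11a and Rab14 were the highest. Rab11a, the Rab of the recycling endosome, ranged from 9.54 RPM over a median of 454 RPM (350 to 512) to 2490 RPM. Rab14, which acts between early endosomes and the trans-Golgi, ranged from 0 over a median of 435 RPM (306 to 527) to 1010 RPM. Its spread was the narrowest by one measure, since the 5 highest cells held 19.7% of its summed RPM, the lowest such share of the members at 10 RPM or more in at least 25 cells. Rab11b ranged from 2.33 RPM over 163 RPM to 431 RPM. Rab4a (fast recycling), Rab31 and Rab15 had medians of 62.8, 36.5 and 18.8 RPM, and Rab22a, Rab35 and Rab21 had medians between 0.829 and 7.75 RPM.

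Rab7, which directs late endosomes to lysosomes, was the highest of the late endocytic genes. It ranged from 0 over a median of 217 RPM (146 to 297) to 759 RPM and reached 10 RPM in 44 cells. Rab12 had a median of 35.6 RPM and a highest value of 530 RPM, and Rab24, a Rab linked to autophagy, had a median of 30.9 RPM and a highest value of 700 RPM. Both were at 10 RPM or more in similar numbers of cells, 30 and 29. Rab9, of transport from late endosomes to the trans-Golgi, had a median of 6.81 RPM and its relative Rab9b of 1.72 RPM.

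The ER and Golgi group contained Rab6a and Rab2a, the members next to Rab3a by median RPM. Rab6a, of retrograde transport from the Golgi, ranged from 6.17 RPM over a median of 480 RPM (322 to 589) to 1739 RPM. Rab2a, which acts between ER and Golgi, ranged from 6.20 RPM over a median of 455 RPM (398 to 679) to 2645 RPM. Rab1a, of export from the ER, ranged from 0 over a median of 169 RPM (95.4 to 283) to 911 RPM. The intervals of Rab6a, Rab2a, Rab11a and Rab14 overlap. Differences between these 4 within each cell were not computed, so no order among them is claimed. Rab1b (154 RPM), Rab6b (130 RPM) and Rab18 (71.6 RPM), the last linked to ER and lipid droplets, followed by their medians. Rab33a, Rab33b and Rab34 had medians between 0.876 and 3.16 RPM.

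Of the route to the plasma membrane, Rab10, which delivers membrane to the growing axon, ranged from 0 over a median of 184 RPM (123 to 339) to 1358 RPM. Rab8a, an exocytic Rab that is also known from the cilium, had a median of 17.8 RPM, a highest value of 374 RPM and 26 cells at 10 RPM or more. Rab23, a Rab of ciliary and hedgehog signalling, had a median of 1.33 RPM and a highest value of 428 RPM. Rab28 and Rab8b had medians of 0.947 and 0.862 RPM. The 3 others, Rab40b, Rab40c and Rab39b, had medians of 3.15, 0.963 and 0.798 RPM, with highest values of 351, 367 and 552 RPM.

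**Figure D2:**
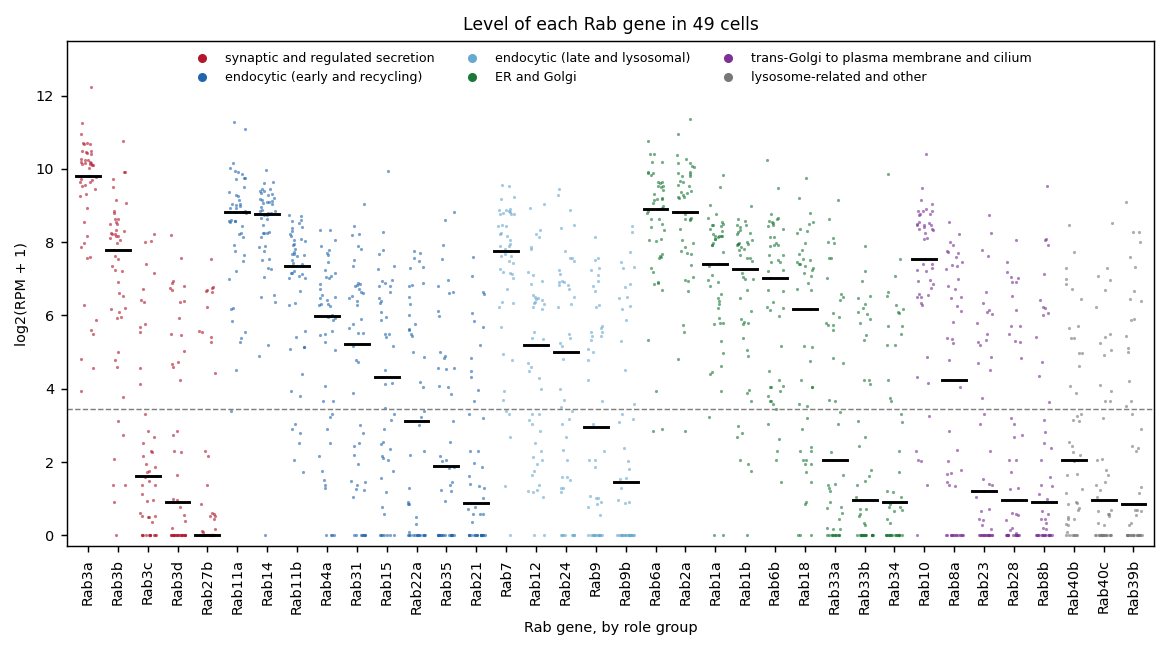
Level of each Rab gene as log2(RPM + 1), with 1 point per cell (49 per gene), the median as a black bar, colours for the role groups and a dashed line at 10 RPM. Each role group has genes with a median above the line and genes below it, except the group of Rab40b, Rab40c and Rab39b, which lies below it.

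In all, 19 of the 36 members were at 10 RPM or more in at least 25 of the 49 cells, a limit that 38.2% of the 9020 genes passed. They were 2 of 5 synaptic, 6 of 9 early endocytic, 3 of 5 late endocytic, 6 of 9 ER and Golgi, 2 of 5 trans-Golgi to plasma membrane and 0 of 3 other genes. A median of 100 RPM or more was found for 12 of 36 members (13.7% of all genes), and 6 of 36 had at least 1 read in every cell (8.1% of all genes), namely Rab3a, Rab11a, Rab11b, Rab6a, Rab2a and Rab6b. The median level over the members was 18.3 RPM, beside 3.87 RPM over all genes. The table lists genes that reach 100 RPM in at least 2 cells, so that each member had to be high somewhere.

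For the 17 members under that limit, the 5 highest cells held a median of 63.3% of the summed RPM (46.2% to 76.9%), beside 70.8% over all genes under it. For the 19 members above it they held 30.8% (19.7% to 54.1%), beside 39.9% over all genes above it. The limit and the table's filter set this contrast in part, so it is a description. C1qb, a microglial gene that neurons should lack, had at least 1 read in 38 cells and 10 RPM or more in 11, and 17 members, Rab3c, Rab3d and Rab27b among them, had a read in no more cells than that. The other microglial genes listed had a read in fewer cells, from 14 (Tmem119) to 27 (C1qc), so C1qb was the strictest of these comparisons. By that comparison, 1 read in a cell was not taken as expression of these 17 members. At 10 RPM, all 36 members were in more cells than C1qb.

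A cell had at least 1 read for 19 to 36 of the members (median 30) and 10 RPM or more for 12 to 34 (median 21). The first count followed depth across the 49 cells (Spearman rho 0.88), as did the second (rho 0.71). After each cell was thinned to 358412 reads, which left out 5 shallower cells, 17 to 35 members had a read (median 25). For 35 of the 36 members rho between RPM and depth was above 0, as for 92.2% of all genes, and only Rab40b was negative (rho -0.18). These correlations are descriptions over cells that share pools.

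The synaptic genes together were compared with the endocytic and the Golgi genes in each cell. The summed level of the 5 synaptic genes ranged from 31.5 over a median of 1277 to 5756 RPM. The 14 endocytic genes summed to between 143 and 3878 RPM (median 2078), and the 9 ER and Golgi genes to between 413 and 5652 RPM (median 1793). The synaptic sum was the lowest of the 3 in 40 of 49 cells and the highest in 4. The groups hold 5, 14 and 9 genes, so a lower sum does not mean a lower level per gene. Of the RPM of all Rab genes, a median of 22.4% was synaptic, 33.5% endocytic and 32.7% ER and Golgi, and Rab3a alone was 16.8%.

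On the log2 scale of summed RPM + 1, the difference of synaptic minus endocytic had a median of -0.55 (-0.79 to -0.36) and ranged from -6.25 to 2.83. It was below 0 in 42 of 49 cells (85.7%, exact interval 72.8% to 94.1%). Synaptic minus Golgi had a median of -0.53 (-0.67 to -0.43) and was below 0 in 43 of 49 cells (87.8%, exact interval 75.2% to 95.4%). Endocytic minus Golgi had a median of 0.029 (-0.20 to 0.33), with 25 cells above 0 and 24 below. With the mean of log2(RPM + 1) over the members in place of the sum, the 3 medians were -0.17, -0.57 and -0.84 in this order. In the 27 cells the medians for the sums were -0.70, -0.60 and -0.0066, and synaptic was below endocytic in 23 and below Golgi in 24. In the 19 cells without those led by Ttr as well, they were -0.43, -0.60 and -0.13, and synaptic was below endocytic in 16 and below Golgi in 17.

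The library kit primes at the 3′ end, so RPM was not divided by length. When RPM was divided by the annotated exon length, synaptic minus endocytic had a median of -0.012 and endocytic minus Golgi of -0.39, so that the order of synaptic and endocytic genes depends on this choice. The synaptic sum also rested on Rab3a, without which its difference to the endocytic sum was -2.73 and to the Golgi sum -2.60 at the median. Rab3a was first on both scales, at 890 RPM and 400 RPM per kb. On the per-kb scale Rab2a (213), Rab11a (152), Rab6a (129) and Rab7 (83.3) followed, and Rab14, whose annotated exons span 13589 bases, was at rank 11 of the 36.

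By pool, the median of synaptic minus endocytic ranged from -0.71 in pool 4 to -0.36 in pool 2, below 0 in all 5. Synaptic minus Golgi ranged from -1.37 in pool 5 to -0.23 in pool 4. Across cells the sums went together, with rho 0.48 between synaptic and endocytic, 0.61 between synaptic and Golgi and 0.59 between endocytic and Golgi. Each sum also correlated with depth (rho 0.52, 0.37 and 0.45 in the same order of groups), and the part of depth in the relations was not tested.

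**Figure D3:**
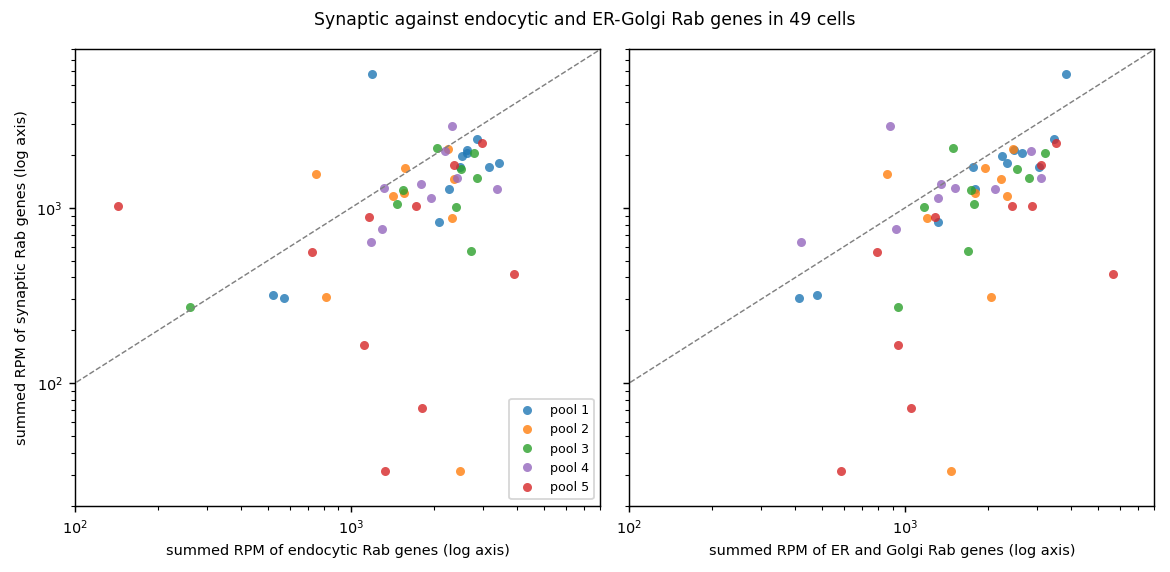
Summed RPM of the 5 synaptic Rab genes against that of the 14 endocytic genes (left) and of the 9 ER and Golgi genes (right) in 49 cells, on log axes, coloured by library pool, with a dashed line where both are equal. Most points lie below the line (42 and 43 of 49 cells), and a few cells of pools 2 and 5 lie far below it.

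Rab3a was under 100 RPM in 7 of 49 cells (14.3%, exact interval 5.94% to 27.2%), 5 of them in pool 5, which has 10 cells, and 2 in pool 2, which has 9. The median of Rab3a in pool 5 was 155 RPM, beside 797 to 1311 RPM in the other 4 pools. These cells had at most 951907 reads, as 19 cells in all did, and their Rab3a values rested on 10 to 55 reads. In the order of their level, Rab3a was at 14.3, 22.9, 26.9, 43.8, 47.7, 57.8 and 77.7 RPM. The remaining 42 cells were all at 190 RPM or more, so there was a gap between both sets. Of the 27 cells 2 were under 100 RPM, and of the 19 cells 2 as well.

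Several of these 7 cells stood out in marker genes as well. The cell with the lowest Rab3a (14.3 RPM, pool 5) had the highest microglia sum of the 49 cells, 4244 RPM, of which C1qb made up 2012 RPM, and its pan-neuronal sum was 1460 RPM. The cell with 26.9 RPM (pool 2) had the highest oligodendrocyte-lineage sum, 3402 RPM, nearly all of it Olig1 (1990 RPM) and Pdgfra (1407 RPM). The cell with 57.8 RPM (pool 5) had the highest inhibitory sum, 9379 RPM, of which Vip was 8113 RPM, Gad2 552 RPM and Slc32a1 462 RPM. Dlx1 and Dlx2 were at 176 and 70.4 RPM in it, but Gad1 was at 2.10 RPM, Sst at 3.15 RPM and Lhx6 and Pvalb at 0. The cell with 22.9 RPM (pool 5) had 2212 RPM of the astrocyte list, with Slc1a2 at 2193 RPM and Aqp4 and Gja1 at 0, and 5575 RPM of the choroid plexus gene Ttr. The part of these markers in the level of Rab3a was not tested.

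The other Rab groups are given for 3 of these cells. In the pool 2 cell with 26.9 RPM of Rab3a, the synaptic genes summed to 31.6 RPM while the endocytic genes summed to 2486 RPM and the Golgi genes to 1467 RPM, which is the lowest log2 difference of synaptic minus endocytic (-6.25). In the cell led by Vip, the sums were 72.5, 1802 and 1054 RPM. In the cell led by microglial genes, they were 165, 1112 and 941 RPM, with 151 RPM of Rab3b. All Rab genes summed to 5342, 3104 and 3048 RPM in these 3 cells and to 2777 RPM in the cell with 22.9 RPM of Rab3a, below the median of 5457 RPM over the 49 cells in each. In that last cell the synaptic genes summed to 31.5 RPM, the endocytic to 1332 RPM and the Golgi genes to 587 RPM.

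The remaining 3 cells under 100 RPM had high pan-neuronal sums, between 8695 and 15983 RPM. All of them had more Rab3b than Rab3a. The cell of pool 5 with 47.7 RPM of Rab3a had 972 RPM of Rab3b, the highest pan-neuronal sum of all cells and only 209850 reads, the fewest of all. Its excitatory sum, 2721 RPM, was at rank 2 from the highest of the 49 cells. Its endocytic sum of 143 RPM was the lowest and its Rab6a level of 1739 RPM the highest of the 49 cells. It also had 1582 RPM of the astrocyte list (Slc1a2 915 RPM, Slc1a3 667 RPM), 739 RPM of Sst and 362 RPM of C1qb. Other genes of these lists were absent from it, with Aqp4, Aldoc, Gja1, Gad1, Gad2, P2ry12 and Tmem119 at 0. C1qa and C1qc were at 9.53 RPM each, Slc32a1 at 4.77 RPM and Vip at 57.2 RPM. The other cells of the 3 had 267 RPM (pool 2) and 322 RPM (pool 5) of Rab3b. In the former the excitatory list summed to 1136 RPM. The latter had more astrocyte (407 RPM) than excitatory RPM (264 RPM), with Slc1a2 alone at 400 RPM. Slc1a2 was at 10 RPM or more in 39 of the 49 cells.

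At the other end, a cell of pool 1 had 4789 RPM of Rab3a from 5920 reads. It was the highest cell of Rab14 (1010 RPM), Rab2a (2645 RPM), Rab10 (1358 RPM) and Rab34 (921 RPM) too, and its 36 Rab genes summed to 12153 RPM, the most of any cell. Its synaptic sum was 47.4% of all Rab RPM, the highest share. The same cell had the highest excitatory sum, 2917 RPM, along with 1917 RPM of the astrocyte list and 19561 RPM of Ttr.

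Rab3a was compared with marker sums and depth across all cells. Its rho was 0.57 with reads per cell, 0.51 with the pan-neuronal sum, 0.42 with the sum of 20 synaptic vesicle genes, 0.36 with the excitatory list, -0.16 with the inhibitory list, -0.23 with the microglia list and -0.40 with the hemoglobin genes. Within the 5 pools, rho with depth was 0.22, 0.73, 0.67, -0.10 and 0.41, so it did not hold in pool 4. Within the 27 cells, rho was 0.49 with depth and 0.22 with the pan-neuronal sum, and within the 19 it was 0.47 and 0.21. Its rho with the astrocyte, oligodendrocyte-lineage, endothelial and choroid plexus lists was between -0.05 and 0.05 over all cells. Within pools these values differed widely, with the astrocyte list at 0.61 in pool 1 and -0.72 in pool 4 and the choroid plexus list at -0.88 in pool 3.

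**Figure D4:**
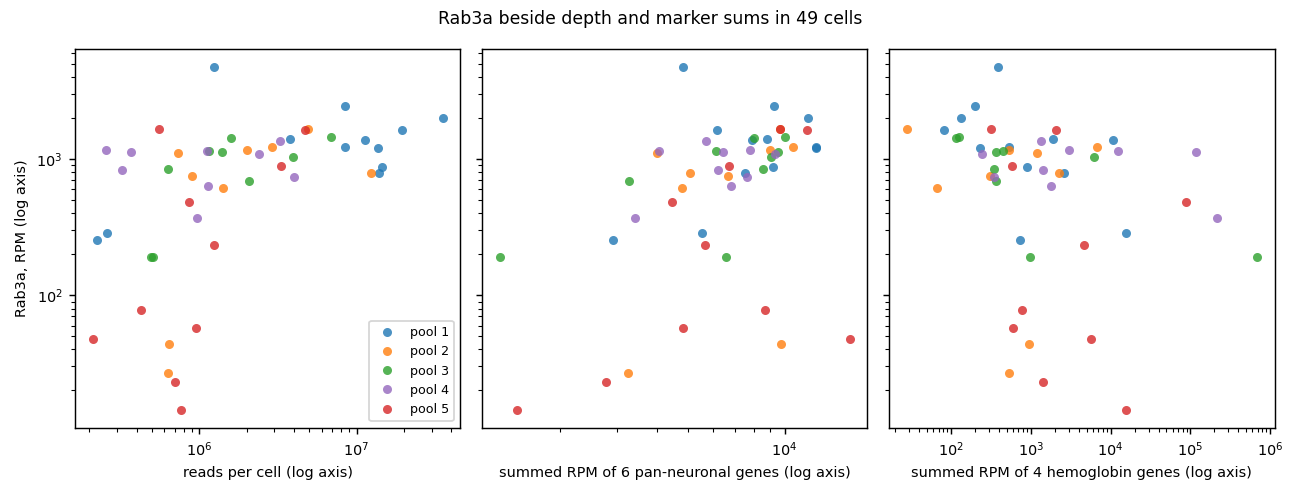
Rab3a (RPM) against reads per cell, the summed RPM of 6 pan-neuronal genes and the summed RPM of 4 hemoglobin genes, all on log axes, in 49 cells coloured by library pool. The 7 cells under 100 RPM form a lower set of pools 2 and 5 and lie at 951907 reads or fewer, at any pan-neuronal sum and without the highest hemoglobin sums.

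Pairs of close relatives shared their levels unequally. Rab3a was above Rab3b in 42 of 49 cells, with a median log2 difference of RPM + 1 of 2.07 (1.42 to 2.86). Rab11a was above Rab11b in 43 cells (1.43, 1.08 to 2.01) and Rab6a above Rab6b in 39 cells (1.91, 1.27 to 2.55). Per kb of exon length, these counts were 44, 46 and 45. For Rab1a and Rab1b, both of which act in export from the ER, the median log2 difference was 0.51 (0.00 to 0.81), with Rab1a higher in 30 cells and Rab1b in 17, and per kb Rab1b was the higher in 29, so no order was found.

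The 7 cells with more Rab3b than Rab3a were 4 of the cells with little Rab3a and 3 others. In those 3, Rab3a was at 190, 746 and 1168 RPM and Rab3b at 373, 838 and 1739 RPM. The last of them is the highest Rab3b value, in a pool 4 cell with 254182 reads. Across cells Rab3a and Rab3b had a rho of 0.14, while Rab6a and Rab6b had 0.32, Rab11a and Rab11b 0.36 and Rab1a and Rab1b 0.40.

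**Figure D5:**
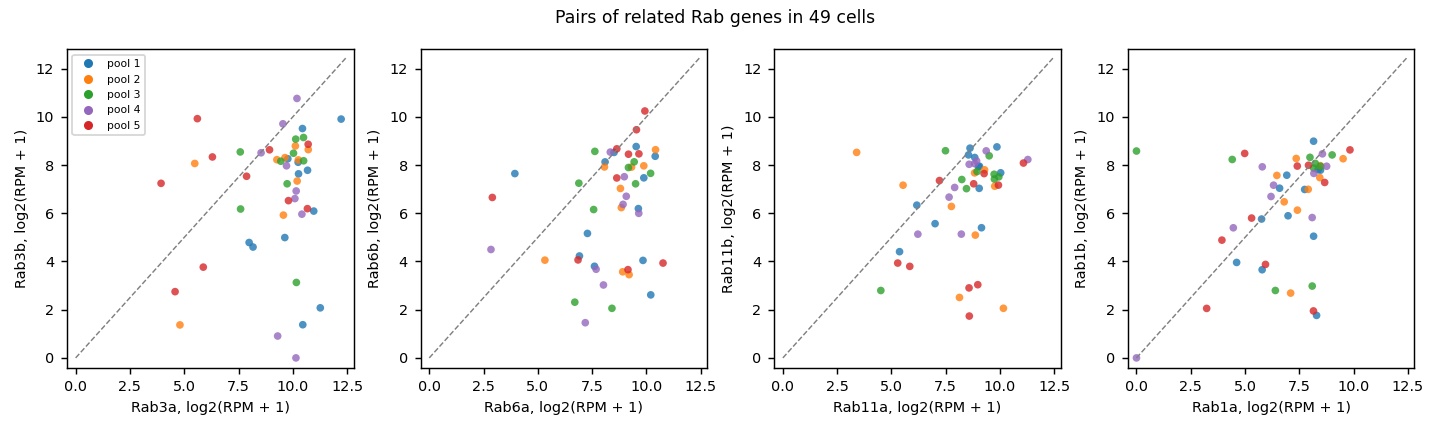
Levels of 4 pairs of related Rab genes in 49 cells, as log2(RPM + 1), coloured by library pool, with a dashed line where both are equal. Points of Rab3a, Rab6a and Rab11a lie mostly to the right of the line (42, 39 and 43 cells), and those of Rab1a and Rab1b lie on both sides of it.

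Among the rarer pairs, both relatives were often absent. Neither reached 10 RPM in 20 cells for Rab8a and Rab8b, in 21 for Rab9 and Rab9b, in 21 for Rab33a and Rab33b, in 22 for Rab40b and Rab40c and in 27 for Rab3c and Rab3d. Rab8a was higher than Rab8b in 27 cells and lower in 13. The medians of the log2 difference for Rab9 and Rab9b (0.00), Rab33a and Rab33b (0.22) and Rab40b and Rab40c (0.17) had intervals that included 0.

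Over the 595 pairs of the 35 members at 10 RPM or more in at least 13 cells, the median rho was 0.14, from -0.33 to 0.64. The highest was between Rab11a and Rab7 (0.64, and 0.55 after thinning), followed by Rab4a and Rab35 (0.58), Rab31 and Rab9 (0.55) and Rab40c and Rab39b (0.53). The 6 pairs of synaptic genes had a median of 0.10, the 91 endocytic pairs of 0.16, the 36 ER and Golgi pairs of 0.19 and the 434 pairs of different groups of 0.13. The cells share pools and depth, and such weak values are not a finding.

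The genes whose level followed Rab3a most closely over the 49 cells, of 6645 compared, were Snap47 (rho 0.77), Ndrg4 (0.74), Mllt11 (0.69), Pik3r2 (0.68), Atp6v1g2 (0.66), Calm2 (0.66), Gtf2h5 (0.63), Tpi1 (0.63), Hnrnpk (0.62) and Hcfc1r1 (0.60). The median over all was 0.16, and 5% lay above 0.42. These 10 genes also had a rho of 0.41 to 0.68 with reads per cell, and after thinning their rho with Rab3a was 0.55 to 0.75. Among the members the closest were Rab3d (0.49), Rab2a (0.48) and Rab14 (0.47), and the median over the 34 other members compared was 0.29. Rab3d had a median of only 0.862 RPM, and its rho with Rab3a by pool ran from -0.34 in pool 1 to 0.80 in pool 2. Over the 20 synaptic vesicle genes the median was 0.19, near the 0.16 over all genes compared. Their values ran from -0.14 (Bsn) to 0.59 (Vamp2, the vesicle SNARE), with Cplx1, a complexin, at 0.43.

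The genes that control Rab proteins were listed by their part in the GTPase cycle. Among the genes for prenylation and membrane extraction, Gdi2 had a median of 249 RPM and a rho of 0.24 with Rab3a. Rabggtb (27.5 RPM), a subunit of the enzyme that adds the lipid, was also at 10 RPM or more in at least 25 cells. Rabggta, Chm and Chml had medians of 0 to 1.98 RPM. Rabif (82.3 RPM), kept in the same list though it has neither of these roles, reached 10 RPM in 31 cells.

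Exchange factors, GAPs and effectors were read against the 38.2% of all genes that passed the same limit. Of the 17 GEF genes in the table, 5 (29.4%) passed the limit of 10 RPM in at least 25 cells, and Madd, the exchange factor of Rab3, had a median of 17.7 RPM and a rho of 0.00 with Rab3a. Of the 28 GAP genes, 3 (10.7%) passed it (Rabgap1l, Sgsm3 and Rabgap1, with medians of 69.9, 59.5 and 55.1 RPM), and Rab3gap1, a subunit of the complex that acts on Rab3, had a median of 4.05 RPM. Of the 35 effector genes, 12 (34.3%) passed it, a share near that of all genes, as for the GEFs. Rufy3 (298 RPM), the motor Myo5a (108 RPM), Rab11fip2 (106 RPM), an effector of Rab11, and Rims1 (45.8 RPM), a Rab3 effector of the active zone, were among them. Of the 20 synaptic vesicle genes 18 passed, led by Snap25 (1101 RPM) and Syt1 (707 RPM).

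Overlap with other genes limits some of these values. The annotated exons of 13 members overlap those of another gene. Among them are Rab3a with Mpv17l2, Rab6a with Mrpl48, Rab24 with Prelid1 and Rab10 with Rab10os, each on the opposite strand. Rab11a and Rab18 each overlap a gene on their own strand. Whether reads were counted by strand is not given in the sources used here, so reads of these partners cannot be told apart from those of the members. Of windows of 100 bases in the last 600 bases of their transcripts, 0.430% for Rab11a, 0.732% for Rab3c and 4.13% for Rab33b also occur in another gene, and 0% for the other members.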

How the data were processed

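Single neurons were aspirated from slices, and the authors made cDNA with the SMART-Seq v4 3′ DE kit, which primes at the 3′ end and carries no molecular identifiers (a read may be a PCR copy of another). They sequenced libraries in 5 pools, used STAR for alignment to mm10 and HTSeq for counting, and scaled the counts to RPM. Versions and the annotation are not given in the sources used here.

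The deposited RPM table was used as given, with a pseudocount of 1 on log2 scales. The value of 1 read was found for each cell from its lowest values. Of all values, 100% came out whole within 0.01 of a read, and the step was tested on simulated data. The deposited table was used as the only file, and all of its 49 columns matched a cell. A count test on these reads was not run, since there is 1 condition, and edgeR served only for TMM library sizes. The design foresaw no test.

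Shares have exact Clopper-Pearson intervals and medians the binomial interval of order statistics. Cells were thinned at random to 358412 reads, the 10th percentile of depth. Spearman rho is across cells, with no p-value. Per-kb values used exon lengths of GENCODE M21, and promoter windows came from RefSeq on GRCm38.p6, without chromosome 18. By the rule for named genes, the Rab3 genes and the 3 members of each role group with the highest median were given in full, others by median or range, with the 10 genes most like Rab3a and the pathway and marker lists. 1 gene of the pathway lists is not reported here. The members and lists were chosen with earlier results of these data known. C1qb and the marker genes of single cells were named after their values were seen. The computations ran in Python 3.11.15 with scipy 1.17.1 and pandas 2.3.3, and in R 4.3.3 with edgeR 4.0.16.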

Additional observations from a re-analysis of the deposited data

How the results depend on the processing

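Of 103 recomputed values, 94 stayed within the interval or range around the value reported and 9 moved. In 0 of them a difference whose interval excluded 0 changed its sign. For the number of members a fixed range of 12.7 to 28.5 was used, and for rho 1 standard deviation over genes or pairs. Both ranges are wide, so that staying within them says little. The alternatives were leaving out each pool, thinning, RPM without mitochondrial and hemoglobin genes, TMM library sizes, other pseudocounts, filters and detection limits, and, chosen after seeing the data, cells of at least 1000000 reads (29 cells), the 27 cells not led by the inhibitory, astrocyte, oligodendrocyte-lineage or microglia list or high in hemoglobin, the 19 of them not led by Ttr, and sums without Rab3a. The median log2 difference of synaptic minus endocytic moved to -0.012 per kb of exon length, to -0.17 with the mean of log2 values over the members and to -2.73 without Rab3a, and stayed between -0.70 and -0.39 otherwise. Synaptic minus Golgi moved to -2.60 without Rab3a and stayed between -0.61 and -0.43. Endocytic minus Golgi moved to -0.39 per kb and to -0.84 with the mean of log2 values. The number of members detected in at least 25 cells was 19 at 10 RPM, 27 at 1 RPM, 35 at 1 read and 12 at 100 RPM. The share of cells with Rab3a was 100% at 10 RPM and 85.7% at 100 RPM. For the mean of log2 values the cause was not tested. The median rho of Rab3a with the synaptic vesicle list was between 0.12 and 0.32, and that among synaptic genes between 0.048 and 0.18.

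No paired analysis was possible because the design holds a single condition and thus no groups to pair. Cells of 1 pool share a library, and the animal and day of a cell are not in the labels, so neither can be told apart from differences between cells. In the shallowest cells a single read is 4.77 RPM, which sets the limit for the low members.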
